A study of Rattus norvegicus with 6 samples.

Results

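The subject is a set of 10 genes that build, bind or break down the hyaluronan and proteoglycan gel of the disc, measured by RNA sequencing: Acan, Vcan, Hapln1, Hapln3, Has1, Has2, Has3, Hyal1, Hyal2 and Cd44. They were taken by symbol, 1 row each, from a table of 32623 rat genes. The rule uses no measured value, although the set was drawn up with earlier results of these data known. The cells were nucleus pulposus cells, from the soft core of the intervertebral disc, grown from the lumbar spine of Sprague-Dawley rats (males, 4 weeks old) and used at passages 3 to 5. One group (shBmal1, 3 libraries) carried a lentiviral hairpin RNA against the clock gene Bmal1 for 72 hours. The other (shNC, 3 libraries) carried a negative control hairpin for the same time. The labels do not tell whether the 3 libraries per group derive from different animals or dishes. The p-values below therefore reflect spread among these libraries alone, and that spread may be technical.

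Aggrecan, the protein encoded by Acan, carries many sulfated sugar chains and binds along strands of hyaluronan, and the resulting aggregates hold water and give the nucleus pulposus its swelling pressure. Link proteins of the HAPLN family lock each aggrecan onto the strand, and versican (Vcan) is a related proteoglycan of looser and growing matrix. Hyaluronan itself is a plain sugar polymer spun out at the cell surface by the HAS synthases, held there by its receptor CD44 and cut by hyaluronidases, of which HYAL2 sits on the cell surface and HYAL1 works in lysosomes.

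All 10 transcripts differed between the groups. Acan, Hapln1, Hyal1 and Hyal2 were lower in shBmal1, whereas Has1, Has2, Has3, Cd44, Hapln3 and Vcan were higher. Synthases and hyaluronidases thus moved in opposite directions, and so did the 2 proteoglycans and the 2 link proteins. The rises of Vcan and Hapln3 were the smallest changes of the 10 and did not hold in every setting described below. The changes ran from a 19.7-fold lower level of Acan to a 12.0-fold higher level of Has1. All 10 passed edgeR's quasi-likelihood test at a Benjamini-Hochberg adjusted p under 0.05, in a comparison in which 71.3% of the 14342 tested genes passed, 36% higher and 35.3% lower. Against that background the count of members called is not in itself a result, and the sizes and directions are what the members add. In none of the 10 did the CPM values of the groups overlap, as held for 77.3% of all tested genes. A change of at least 2-fold at an adjusted p under 0.05 was seen in 8 of the 10, all but Vcan and Hapln3. The same held for 47.3% of all tested genes. The median log2 fold change was 0.67 over the 10 genes and −0.01 over all tested genes.

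The libraries differed between the groups in other ways too. Totals were 8773762 to 11679587 counts in shBmal1 and 44043803 to 49783710 in shNC, a 4.44-fold higher mean in shNC, and the share of mitochondrial rRNA was 19.3-fold higher in shBmal1 at 0.722 to 1.31% of counts, against 0.0330 to 0.0602% in shNC. The Bmal1 transcript, listed as Arntl, stood at 2.07 to 4.24 CPM in shBmal1 and 27.4 to 31.7 CPM in shNC. Of 12 tested nucleus pulposus and notochord markers, 3 were higher in shBmal1, 5 lower (Acan, Pax1, Col2a1, Krt8 and Ncam1) and 4 did not pass. The summed CPM of the listed markers, Acan included, was 317 to 401 in shBmal1 and 1545 to 1588 in shNC. Col2a1 averaged 0.947 ± 0.506 CPM in shBmal1 and 35.4 ± 3.91 CPM in shNC (SD, n = 3 each). Krt8 averaged 34.3 ± 8.72 CPM in shBmal1 and 79.8 ± 0.72 CPM in shNC, and Ncam1 91.6 ± 19.5 and 196 ± 14.4 CPM. Pax1 averaged 84.9 ± 4.93 CPM in shBmal1 and 527 ± 12.9 CPM in shNC (SD, n = 3 each), while Foxf1 averaged 73.0 ± 1.97 CPM in shBmal1 and 49.5 ± 1.84 CPM in shNC and Ca3 averaged 7.68 ± 0.70 CPM in shBmal1 and 3.02 ± 0.39 CPM in shNC. Tek, the other marker that was higher, reached the filter's level in 1 of the shNC libraries only. Krt19 ranged from 0.653 to 4.31 CPM in shBmal1 and from 0.510 to 1.08 CPM in shNC, and the notochord gene Tbxt had no count in any library. Of 9 tested fibroblast, annulus and tendon markers 8 were lower and none higher. Their summed CPM, with that of an untested marker that had no count, was 9617 to 12417 in shBmal1 and 75451 to 88949 in shNC. Nearly all of it came from Col1a1, at 9147 to 11995 CPM in shBmal1 and 74508 to 88050 CPM in shNC. Smooth muscle markers gave 3 lower and 2 higher among 5 tested. They summed to 743 to 857 CPM in shBmal1 and 4083 to 4407 CPM in shNC. Of 3 tested endothelial markers, 1 was lower and 2 were higher. Those 2, Vwf and Tie1, reached the filter's level in 0 shNC libraries. These differences run with every change below and their part in it was not tested, and in bulk RNA fewer cells of a type and less RNA per cell cannot be told apart. With each library thinned to the smallest total, all 10 genes were still called in the same direction.

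CPM are counts scaled to library size with the TMM method, which matches libraries on the bulk of their genes, and serve to compare groups. FPKM are the authors' deposited values, divided by gene length and depth, and serve to compare genes with each other.

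**Figure D1:**
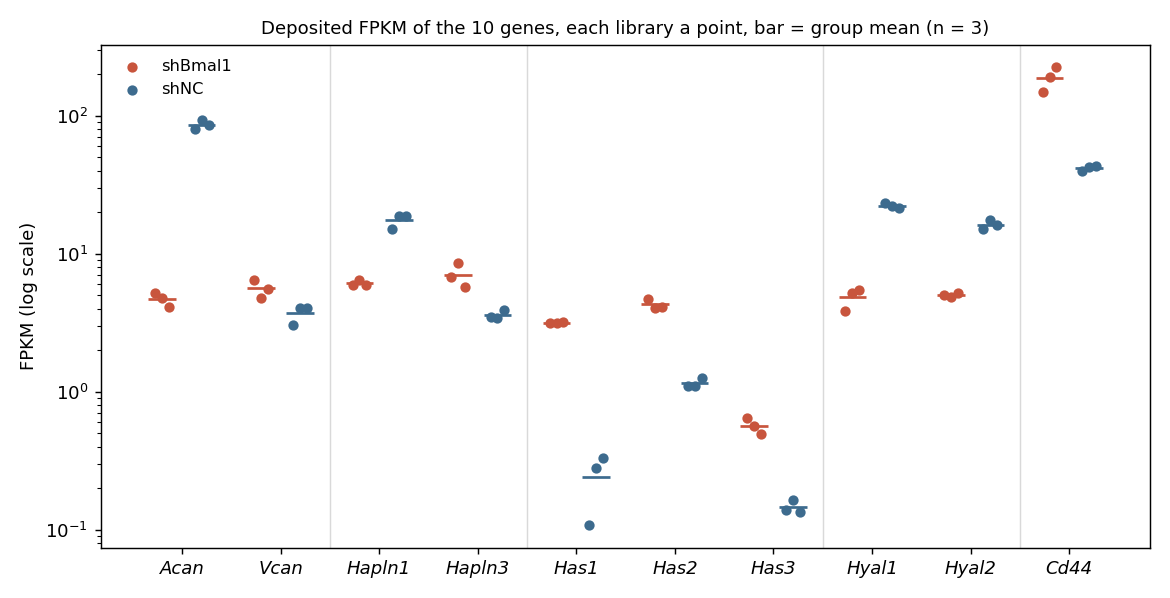
Deposited FPKM on a log axis for each of the 10 genes, with 1 point per library, bars at group means, shBmal1 in red to the left of shNC in blue. Acan, Hapln1, Hyal1 and Hyal2 lie lower in shBmal1 than in shNC, the other 6 genes higher, and in shBmal1 the means of 8 genes lie between 3.16 and 7.05 FPKM.

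Because Bmal1 acts through the E-box element, promoter sequences were examined first. RefSeq windows of the GRCr8 build, from 250 bases before to 50 bases after a gene start, were matched by symbol for 7 of the 10 genes, giving 8 windows since Vcan has 2. Neither the E-box CACGTG nor its variant CACGTT occurred in any of the 8 windows on either strand, against 6.42% and 4.83% of all 33469 windows. This says only that these letters are not in those 300 bases. The 250 bases before the start are shown for the genes at both ends of the range, Acan with the largest fall and Has1 with the largest rise. The capitals in Has1 mark TGACGTCA, the cyclic AMP response element, searched for after the sequence had been seen. It occurred in 1.83% of all windows and, among these genes, in that of Has1 alone.
Acan, chr1:142390701-142390950, forward strand: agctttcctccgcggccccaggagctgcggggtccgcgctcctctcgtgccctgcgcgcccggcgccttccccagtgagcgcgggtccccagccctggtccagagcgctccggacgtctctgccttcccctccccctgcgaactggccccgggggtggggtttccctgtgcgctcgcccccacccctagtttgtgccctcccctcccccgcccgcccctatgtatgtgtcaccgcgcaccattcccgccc
Has1, chr1:67378445-67378694, reverse strand: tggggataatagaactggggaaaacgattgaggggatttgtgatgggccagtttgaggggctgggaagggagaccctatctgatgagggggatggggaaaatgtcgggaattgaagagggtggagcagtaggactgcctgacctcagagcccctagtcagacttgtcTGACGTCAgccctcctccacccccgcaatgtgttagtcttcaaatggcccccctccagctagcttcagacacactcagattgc
The Acan stretch is 73.6% G and C and the Has1 stretch 54.8%, where the median 300-base window of all genes has 51.7%. The sequences thus differ in base composition, and neither holds an E-box of these letters.

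The proteoglycan core proteins changed in unequal measure. Acan (ENSRNOG00000028992, chromosome 1, 140762758 to 140824441, forward strand; build of the table not given in the sources used here) had 36.4, 33.5 and 28.5 CPM in the shBmal1 libraries, against 610, 696 and 637 CPM in the shNC libraries. These values rest on 338, 411 and 344 counts in shBmal1 and on 27179, 32738 and 26824 counts in shNC. Every shBmal1 library lay far below every shNC library, and the mean of 32.8 ± 4.02 CPM was 5.07% of the shNC mean of 648 ± 43.8 CPM (SD, n = 3 each). Its log2 fold change was −4.30 ± 0.11 (SE; adjusted p = 5.46e-08, edgeR), lower than all but 1.49% of tested genes. Ranked by FPKM among protein-coding genes with a count, Acan stood at the 55.7th percentile in shBmal1 and at the 95.9th in shNC.

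Vcan (ENSRNOG00000029212, chromosome 2, 18490102 to 18565842, reverse strand) had 75.9, 55.6 and 64.4 CPM in shBmal1 and 39.0, 51.0 and 49.9 CPM in shNC. The lowest shBmal1 library lay just above the highest shNC library. The log2 fold change of 0.48 ± 0.14 (adjusted p = 0.0163, edgeR) was the smallest of the 10, and it did not hold in every setting. Without shBmal1 replicate 1 it was 0.33 (adjusted p = 0.0631, edgeR) and without shNC replicate 1 it was 0.37 (adjusted p = 0.0602, edgeR). With FPKM rescaled to TPM, so that all libraries sum to the same total, it was 0.10 (adjusted p = 0.562, limma), on a scale where the median of all genes was −0.43. The table lists 4 transcripts of Vcan, and the splice forms that differ in their sugar-bearing regions were not separated in these gene totals.

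The balance within the pair does not depend on the scaling between libraries. Acan made up 44.3, 50.1 and 42.4% of the summed FPKM of Acan and Vcan in shBmal1, against 96.3, 95.8 and 95.5% in shNC. Aggrecan transcripts outnumbered versican transcripts per length in each shNC library, and the levels were near parity in shBmal1. On the log2 scale the FPKM ratio of Vcan to Acan averaged 0.26 ± 0.23 in shBmal1 and −4.54 ± 0.15 in shNC, a difference of 4.80. An exact two-sided permutation test over libraries gave p = 0.1 (n = 3 each; 0.1 after adjustment over 2 ratios), the smallest value that 3 against 3 allows. The summed FPKM of the pair was 10.3 ± 1.18 in shBmal1 and 89.6 ± 6.66 in shNC. In CPM, the scale for comparing groups, the sum was 89.1 to 112 in shBmal1 and 649 to 747 in shNC.

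The link proteins moved apart as well. Hapln1 (ENSRNOG00000032002, chromosome 2, 18354542 to 18419071, forward strand), the cartilage link protein that fixes aggrecan to hyaluronan, had 30.7, 33.2 and 30.1 CPM in shBmal1 and 84.1, 103 and 103 CPM in shNC. All 3 shBmal1 libraries lay below the lowest shNC library, with a mean at 32.4% of the shNC level. This gave a log2 fold change of −1.62 ± 0.10 (adjusted p = 3.57e-06, edgeR). Hapln1 therefore fell less than Acan, and the log2 FPKM ratio of Hapln1 to Acan averaged 0.39 ± 0.17 in shBmal1 and −2.30 ± 0.11 in shNC, a difference of 2.69 (exact permutation p = 0.1, n = 3 each, again the smallest possible).

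Hapln3 (ENSRNOG00000022321, chromosome 1, 140827295 to 140835151, reverse strand), a link protein family member found outside cartilage too, had 9.16, 11.5 and 7.53 CPM in shBmal1 and 5.03, 4.95 and 5.58 CPM in shNC. The groups were apart, with a wider spread in shBmal1, where 85 to 141 counts stand behind each value. Hapln3 had a log2 fold change of 0.86 ± 0.23 (adjusted p = 0.00923, edgeR), and of 0.42 with TPM (adjusted p = 0.0523, limma). Hapln3 made up 53.4, 57.2 and 49.2% of the summed FPKM of the 2 link proteins in shBmal1, against 18.7, 15.6 and 17.3% in shNC.

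**Figure D2:**
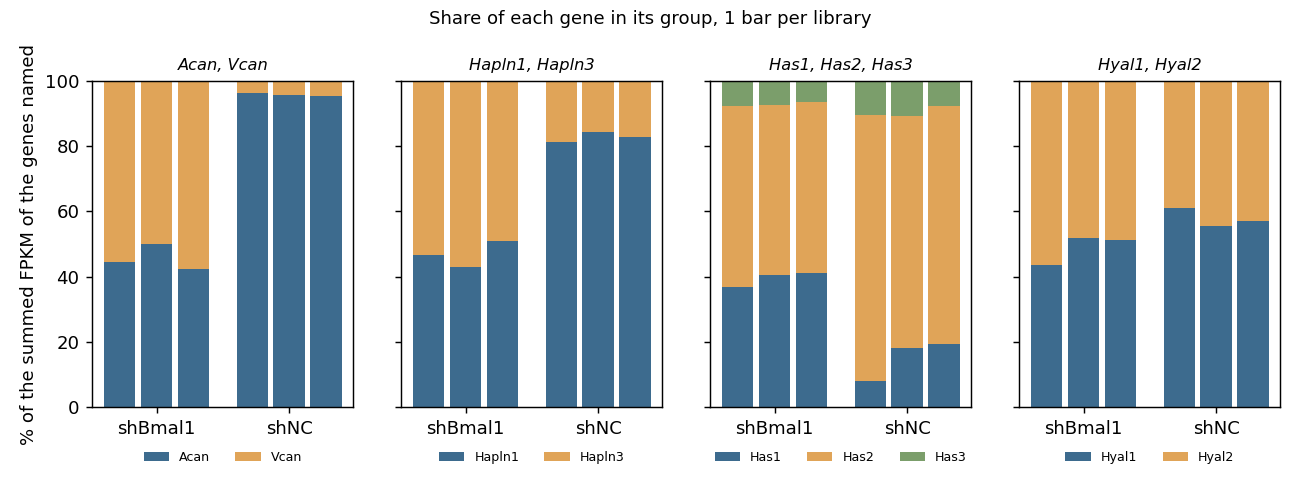
Percent of the summed FPKM taken by each gene within its group, with 1 stacked bar per library, shBmal1 bars left of shNC bars. Acan took 42.4 to 50.1% of the Acan and Vcan sum in shBmal1 and 95.5 to 96.3% in shNC, and Has1 took 36.9 to 41.0% of the synthase sum in shBmal1 and 8.07 to 19.3% in shNC.

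Each of the 3 hyaluronan synthase transcripts was higher in shBmal1. Has2 (ENSRNOG00000004854, chromosome 7, 96438046 to 96464049, reverse strand), the main synthase of most connective tissue cells, had 19.8, 17.1 and 17.1 CPM in shBmal1 and 5.05, 4.99 and 5.68 CPM in shNC. The groups were well apart, the shBmal1 mean being 3.44-fold higher, with a log2 fold change of 1.78 ± 0.16 (adjusted p = 2.38e-05, edgeR). Has2 held the largest share of synthase FPKM in every library, with 55.4, 52.3 and 52.7% in shBmal1 and 81.6, 71.3 and 73.0% in shNC.

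Has1 (ENSRNOG00000010994, chromosome 1, 59720612 to 59732409, reverse strand) had 6.68, 6.69 and 6.71 CPM in shBmal1 and 0.269, 0.637 and 0.760 CPM in shNC, from 62, 82 and 81 counts against 12, 30 and 32. The shBmal1 libraries were nearly equal and all above the shNC libraries, which differed 2.82-fold among themselves. On the log2 scale the change was 3.58 ± 0.43 (adjusted p = 0.000147, edgeR), with the largest standard error of the 10 genes. Has1 was the only member that did not reach the filter's level of 0.359 CPM in every library, doing so in 3 shBmal1 and 2 shNC libraries, so its entry into the test leaned on shBmal1. With 1 added to each FPKM, which pulls in the change of low genes, its log2 fold change was 1.75 (limma).

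Has3 (ENSRNOG00000059362, chromosome 19, 39063998 to 39077722, forward strand) was the least abundant synthase, with 4.63, 4.00 and 3.48 CPM in shBmal1 and 1.08, 1.25 and 1.02 CPM in shNC. Its log2 fold change was 1.85 ± 0.34 (adjusted p = 0.00151, edgeR), and 0.45 with 1 added to FPKM and no filter (limma). Has3 overlaps Chtf8, a gene on the opposite strand, by 143 bases. Chtf8 averaged 144 ± 5.30 CPM in shBmal1 and 104 ± 1.45 CPM in shNC (SD, n = 3 each), and the use of strand in counting was not stated in the labels. Reads of Chtf8 counted for Has3 therefore cannot be told apart from Has3 reads. Summed over the 3 synthases, FPKM was 8.01 ± 0.39 in shBmal1 and 1.54 ± 0.19 in shNC. In CPM, the scale for comparing groups, the sum was 27.3 to 31.1 in shBmal1 and 6.40 to 7.46 in shNC.

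Both hyaluronidase transcripts were lower in shBmal1. Hyal1 (ENSRNOG00000015858, chromosome 8, 116332796 to 116335435, forward strand) had 6.57, 8.90 and 9.19 CPM in shBmal1 and 43.1, 40.0 and 38.7 CPM in shNC, a mean at 20.3% of the shNC level. All 3 shBmal1 libraries lay far below the lowest shNC library, replicate 1 lowest. That is a log2 fold change of −2.30 ± 0.15 (adjusted p = 3.52e-06, edgeR). Hyal2 (ENSRNOG00000031420, chromosome 8, 116324040 to 116328978, forward strand) had 10.2, 9.96 and 10.5 CPM in shBmal1 and 33.0, 38.0 and 34.8 CPM in shNC. Its log2 fold change was −1.78 ± 0.11 (adjusted p = 3.23e-06, edgeR), with the groups again well apart. Hyal1 made up 43.4 to 51.7% of the summed FPKM of the pair in shBmal1 and 55.6 to 60.9% in shNC.

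Synthase transcripts stayed below hyaluronidase transcripts in every library, and by much less in shBmal1. The summed FPKM of the synthases was 0.953, 0.768 and 0.730 times that of the hyaluronidases in the shBmal1 libraries, against 0.0351, 0.0391 and 0.0459 times in the shNC libraries. The values of the groups were far apart and this ratio, too, is free of scaling between libraries. It compares transcripts, and hyaluronan and enzyme activity were not measured.

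Cd44 (ENSRNOG00000006094, chromosome 3, 92696313 to 92783658, reverse strand), the main cell surface receptor for hyaluronan, was the most abundant member in shBmal1. It had 597, 766 and 882 CPM in shBmal1 and 175, 183 and 185 CPM in shNC. Every shBmal1 library lay above every shNC library, but they differed among themselves far more than the control libraries did, replicate 1 being lowest. The log2 fold change was 2.05 ± 0.13 (adjusted p = 3.98e-06, edgeR). Cd44 is also abundant on leukocytes, whose common antigen gene Ptprc averaged 0.606 ± 0.710 CPM in shBmal1 and 0.0633 ± 0.110 CPM in shNC. These are 4, 17 and 0 counts in shBmal1 and 0, 0 and 8 counts in shNC. The 10 macrophage and blood markers summed to 30.4 to 38.3 CPM in shBmal1 and 32.7 to 44.7 CPM in shNC, mostly from Cd14 at 26.9 ± 3.04 CPM in shBmal1 and 35.4 ± 5.78 CPM in shNC. Of the 3 that were tested Cd14 was lower, and the other 2 were higher in shBmal1. Cd68 averaged 2.89 ± 1.20 CPM in shBmal1 and 0.407 ± 0.143 CPM in shNC (adjusted p = 0.00223, edgeR), and Lyz2 averaged 2.75 ± 1.08 CPM in shBmal1 and 0.575 ± 0.448 CPM in shNC (adjusted p = 0.0144, edgeR). Both had shNC libraries under the filter's level, and the part of such cells in the Cd44 rise was not tested. The table lists 3 transcripts of Cd44, whose standard and variant splice forms were not separated here.

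**Figure D3:**
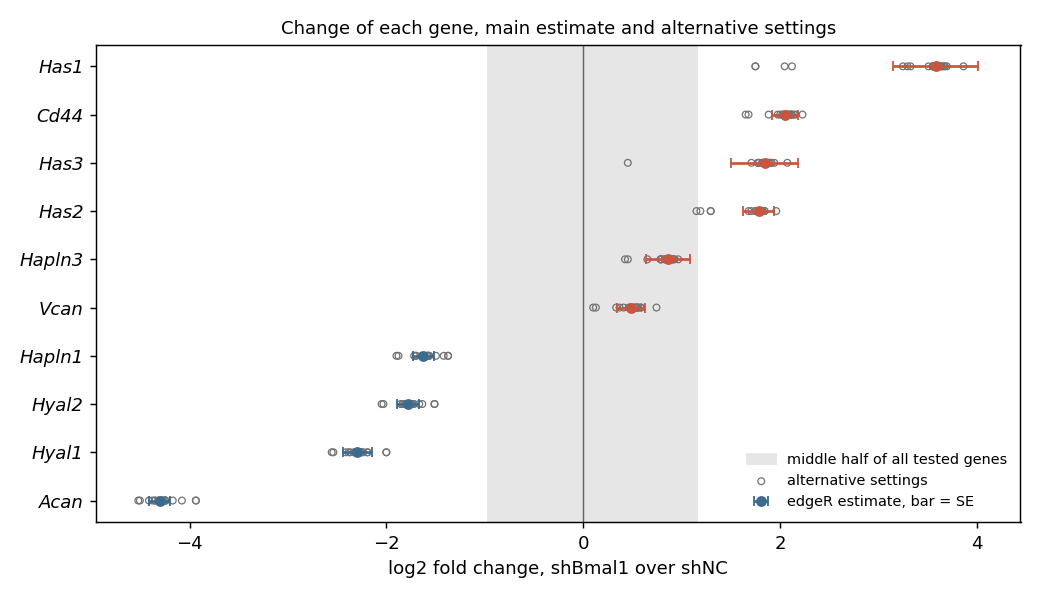
Log2 fold change of shBmal1 over shNC for each gene, as the edgeR estimate with its standard error (filled, red where higher and blue where lower) and under the alternative settings (open), over a grey band that holds the middle 50% of all tested genes, −0.97 to 1.16. No alternative crossed 0 for any of the 10 genes, and Vcan and Hapln3 lie inside the band.

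The changes also reordered the genes by level. In shBmal1, Cd44 stood alone at a mean of 187 FPKM, and 8 genes followed at 7.05 for Hapln3, 6.10 for Hapln1, 5.61 for Vcan, 5.04 for Hyal2, 4.86 for Hyal1, 4.68 for Acan, 4.29 for Has2 and 3.16 for Has1. The library values of neighbours in that order overlapped all the way from Hapln3 to Has2, while Has1 lay apart from Has2. Has3 came last at 0.569 FPKM, apart from Has1. In shNC, mean FPKM ran from 85.9 for Acan and 41.9 for Cd44 through 22.3 for Hyal1, 17.5 for Hapln1 and 16.3 for Hyal2, then 3.71 for Vcan, 3.61 for Hapln3 and 1.15 for Has2, down to 0.240 for Has1 and 0.146 for Has3. There the library values of neighbours overlapped for Hapln1 and Hyal2, for Vcan and Hapln3 and for Has1 and Has3. Acan was thus 7th of the 10 in shBmal1 and first in shNC.

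Among the 10, 6 genes lie as pairs of neighbours on the chromosome, with no other listed gene between them. The members of a pair did not always move together. Acan and Hapln3 run toward each other on chromosome 1 with 2853 bases between them, and Acan fell where Hapln3 rose. Hapln1 and Vcan do the same on chromosome 2 across 71030 bases, and Hapln1 fell where Vcan rose. The rises of Hapln3 and Vcan were the smallest changes among the 10 and missed the threshold with TPM. Hyal2 and Hyal1 lie on the same strand of chromosome 8 with 3817 bases between them, and both fell.

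By the distance between their library profiles (root mean square over 6 libraries, log2 CPM centred on each gene's mean, 7913 genes of at least 10 CPM), the genes closest to Acan were Abi3bp, Thbs1, Cmklr1, Cpz and Acta2, at 0.11 to 0.16. Abi3bp encodes a matrix protein and averaged 37.6 CPM in shBmal1 and 673 CPM in shNC. Thbs1 encodes thrombospondin-1 and averaged 1196 CPM in shBmal1 and 22295 CPM in shNC. With 2 groups such a profile is mostly the size of the group difference, so this is a description of genes with a like fall.

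Lists of related genes are described next, and their counts are to be read against the whole table, where 71.3% of tested genes were called, 36% higher and 35.3% lower, with a median log2 fold change of −0.01. Of 6 tested other enzymes that break down hyaluronan or its fragments, 3 were lower, none was higher and 3 did not pass (median log2 fold change −0.64), fewer calls than the 71.3% of the whole table would give. Cemip, which encodes a hyaluronan-binding protein needed for its depolymerisation, was lower (log2 fold change −1.29 ± 0.29). Gusb, which encodes a lysosomal glycosidase, also fell (−1.39 ± 0.11). Hyal3 was at −0.84 ± 0.46 and missed the threshold (adjusted p = 0.141, edgeR). Hyal4, Hyal5, Hyal6 and Spam1 had no count in any library.

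Other hyaluronan receptors and binding proteins gave 4 higher, none lower and 3 not passing among 7 tested, again a smaller share of calls than the 71.3% of all genes. Hmmr, which encodes a hyaluronan-binding protein that also serves the mitotic spindle, averaged 65.3 ± 10.4 CPM in shBmal1 and 10.6 ± 1.43 CPM in shNC (log2 fold change 2.63 ± 0.15). The pattern receptors Tlr4 (1.01 ± 0.12) and Tlr2 (1.69 ± 0.45) were higher. Stab2, a scavenger receptor for hyaluronan, had 46, 39 and 41 counts in shBmal1 and 0, 0 and 3 counts in shNC, and it passed the filter on shBmal1 counts alone, so that its direction was largely set by the filter. Lyve1 had no count, and Tnfaip6, whose product moves protein chains onto hyaluronan, was at −0.13 ± 0.62 and did not pass. Without shBmal1 replicate 1, 8 genes of the list were tested and 1 was called lower.

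Enzymes on the routes to the sugar nucleotides used by the synthases, early steps included, gave 8 of 12 lower, 2 higher and 2 not passing (median −0.81). Over all tested genes 35.3% were lower. Ugdh, which makes UDP-glucuronic acid, was at −1.09 ± 0.10 and, outside the naming rule, is given because it makes a direct substrate of the synthases. Gfpt1, at the entry to UDP-N-acetylglucosamine synthesis, averaged 137 ± 13.1 CPM in shBmal1 and 284 ± 5.58 CPM in shNC. Gpi (−1.32 ± 0.06) and Hk1 (−0.73 ± 0.06) were lower as well. Uap1, the last step to UDP-N-acetylglucosamine, rose, with 92.3 ± 5.13 CPM in shBmal1 and 46.3 ± 2.44 CPM in shNC. The other gene that was higher, Pgm2 (0.35 ± 0.13), named because it is the only other one, is the kind of small call that is easily lost: without any 1 of 5 libraries, shBmal1 replicate 1 being the exception, 1 gene of the list was called higher.

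Proteases that cut aggrecan or versican, with the inhibitor Timp3, gave 6 lower, 3 higher and none not passing among 9 tested (median −1.75), where 35.3% of all tested genes were lower and 36% higher. Among the 6 lower was the inhibitor itself, Timp3 averaging 10.1 ± 5.45 CPM in shBmal1 and 68.2 ± 4.14 CPM in shNC. Adamts5, a main aggrecanase in mice, had 19.5 to 25.4 CPM in shBmal1 and 71.9 to 75.8 CPM in shNC (−1.75 ± 0.11). Adamts9 (−3.68 ± 0.25) and Adamts15 (−4.20 ± 0.30) fell further. Mmp3, which encodes stromelysin-1, rose, at 66.9 ± 6.20 CPM in shBmal1 against 3.52 ± 0.14 CPM in shNC.

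Among 8 transcription factors linked to aggrecan or to cartilage, 3 were higher, 3 lower and 2 did not pass, close to the 36% higher and 35.3% lower of the whole table. Sox9, the factor best known for driving Acan, ranged from 8.61 to 11.5 CPM in shBmal1 and from 9.48 to 10.5 CPM in shNC, with a log2 fold change of −0.04 ± 0.18 (adjusted p = 0.838, edgeR); it was picked for this role and not by the naming rule. Of the other SOX genes listed, Sox5 averaged 3.16 ± 1.17 CPM in shBmal1 and 7.90 ± 0.71 CPM in shNC. It was called lower (−1.32 ± 0.32, adjusted p = 0.00607, edgeR), and Sox6 (0.36 ± 0.18) did not pass. Runx2 (−1.24 ± 0.11) and Nkx3-2 (−1.64 ± 0.20) also fell. Runx1 (0.84 ± 0.11) and Hif1a (0.39 ± 0.06) rose, although Hif1a was at 0.01 with TPM (adjusted p = 0.852, limma).

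Partners, sheddases and ligands of CD44 gave 6 lower, 4 higher and 2 not passing among 12 tested, where 35.3% of all tested genes were lower and 36% higher. Of the 4 higher, Mmp9 and Esrp2 reached the filter's level in all 3 shBmal1 libraries but in 2 shNC libraries, so their entry into the test leaned on shBmal1. Msn, which encodes moesin, a link between CD44 and the actin cortex, averaged 1083 ± 13.8 CPM in shBmal1 and 742 ± 4.51 CPM in shNC, and Spp1, which encodes the ligand osteopontin, rose by 0.59 ± 0.08, or 0.23 with TPM (adjusted p = 0.0513, limma). Mmp14, a membrane protease that can shed CD44, fell, at 116 ± 8.15 CPM in shBmal1 against 422 ± 22.7 CPM in shNC. Nf2, whose product merlin also binds CD44, fell too (−1.47 ± 0.10). Of 7 tested other lecticans, link proteins and lectican ligands, 3 were higher and 2 lower, against 36% and 35.3% of all tested genes. Fbn1, which encodes fibrillin-1, averaged 150 ± 30.6 CPM in shBmal1 and 1365 ± 49.2 CPM in shNC, and Tnc, which encodes tenascin-C, fell by 0.77 on the log2 scale. Hapln4, a link protein gene of the nervous system, averaged 10.5 ± 0.58 CPM in shBmal1 and 3.53 ± 0.76 CPM in shNC. The other 2 higher genes, Ncan, the neurocan gene of brain, and the link protein gene Hapln2, had 9, 17 and 17 and 6, 12 and 9 counts in shBmal1 and none in shNC, so that the filter largely set their direction and much of this count.

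**Figure D4:**
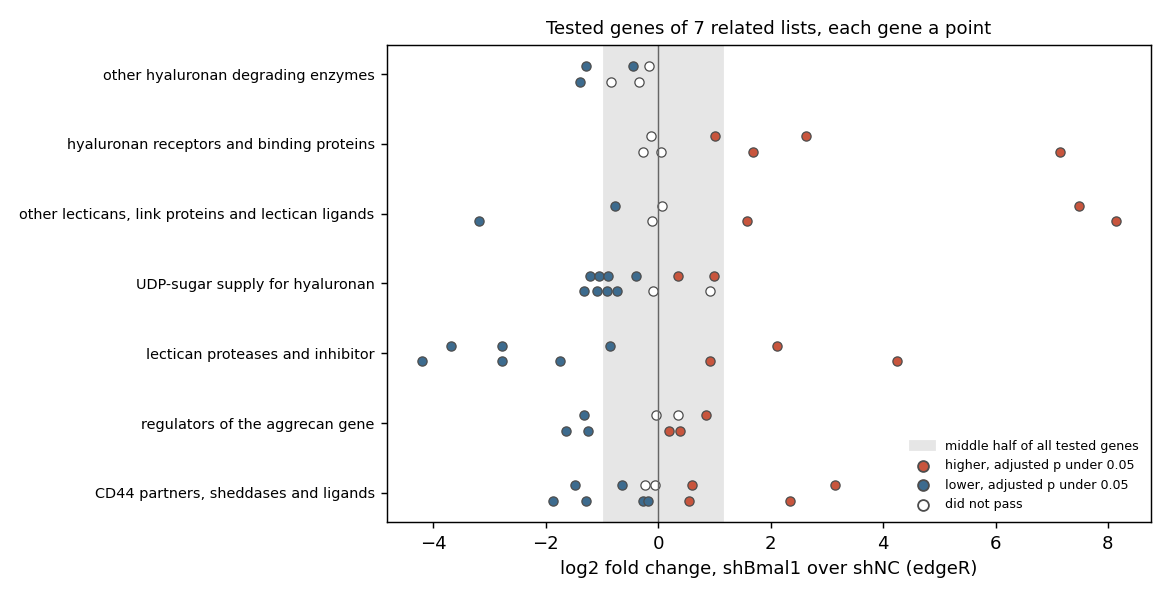
Log2 fold change of shBmal1 over shNC (edgeR) for the tested genes of the 7 related lists, each gene a point, red where higher, blue where lower and white where it did not pass, over a grey band with the middle 50% of all tested genes. Among enzymes on the routes to sugar nucleotides 8 of 12 points are blue. Among hyaluronan receptors 4 of 7 are red, 1 of them a gene that passed the filter on shBmal1 counts alone. Over all tested genes 35.3% were lower and 36% higher.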

How the data were processed

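RNA from 6 libraries was compared, 3 shBmal1 and 3 shNC, grouped by sample title. The authors' deposited table gives, per the file headers, a read count for each gene, in whole numbers, and an FPKM value, a level divided by gene length and depth. The submitters' processing notes list StringTie 1.3.4d, DESeq2, HISAT2 2.0.4, edgeR and cutadapt 1.9 without their roles. Genome build, annotation, counting program and strand setting: not given in the sources used here. Value columns tied to no sample numbered 0.

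Low genes were dropped with filterByExpr, which asked for 15 counts in total and for 0.359 CPM in at least 3 libraries. That level is 10 counts at the median library size, and fewer counts in the shallower shBmal1 libraries than in shNC. TMM scaling and the quasi-likelihood test of edgeR 4.0.16 in R 4.3.3 followed, with no replicate block. The p-values were adjusted over all 14342 tested genes. The members and lists were chosen with earlier results of these data known. Genes were named by a rule: all members, up to 4 called genes per related list with the smallest p and at least 1 CPM in the higher group, and the 5 genes nearest to Acan. A gene that this rule names is not reported here. Hyal3, Hyal4, Hyal5, Hyal6, Spam1, Lyve1, Tnfaip6, Ugdh, Pgm2, Sox9, Sox5, Sox6, Chtf8, Timp3, Mmp9, Esrp2, Hapln2 and the marker genes were named after their values were seen. Depth sets the precision: 3 counts correspond to 0.257 to 0.342 CPM in shBmal1 and 0.0603 to 0.0681 CPM in shNC, counting error only. Libraries within a group all differed beyond sampling noise, with 11.2 to 25.2 for chi-square over its degrees of freedom. The procedure was also run on simulated counts in which only a small part of the genes changed. Such a run cannot probe the scaling where most genes are called, as here. Alternatives were DESeq2 1.42.0, RLE scaling, other filters, limma 3.58.1 on log2(FPKM + 1 or 0.1) and on TPM, thinning to 8773762 counts, the replicate block, each library left out and, added after seeing the data, an offset for gene length.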

Additional observations from a re-analysis of the deposited data

How the results depend on the processing

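No alternative reversed the direction of any of the 10 genes, and the 4 falls (Acan, Hapln1, Hyal1 and Hyal2) passed under every alternative run. With TPM, whose median over all genes was −0.43, 3 members were called higher and 4 lower among 9 tested, and 3462 genes were higher and 6261 lower over the whole table, against 5167 and 5066 with TMM; Vcan and Hapln3 missed the threshold there. That shift is in the construction of TPM, since the sum of deposited FPKM was 565293 to 598765 in shBmal1 and 410231 to 418147 in shNC. The even split with TMM is likewise tied to its construction, which matches libraries on the bulk of their genes. Which scale is nearer the truth was not tested. Without rRNA and mitochondrial genes TPM left 4 members higher, Vcan missing the threshold at 0.13. Has3 could not be fitted in the 4 settings that ask for more than 1 FPKM in 3 libraries. Leaving out each library in turn gave 9 to 10 members called, 5 to 6 of them higher and 4 lower, and 9274 to 10617 genes called in all. The differences in log2 ratio stayed at 4.70 to 4.93 for Vcan to Acan and 2.62 to 2.78 for Hapln1 to Acan. Shorter genes were higher in shBmal1 (median log2 fold change 1.07 in the shortest 10% of tested genes, −0.26 in the longest 10%, which hold Acan, Vcan and Has3), and with an offset for gene length all 10 members were called, Vcan at 0.74 and Acan at −4.08. Counts in the related lists moved by more than 1.5 times in 29 of 252 alternatives, among them TPM, with 6 enzymes of hyaluronan breakdown lower and 4 of the other lecticans and their ligands lower.

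The replicate numbers are not known to pair libraries: same-numbered libraries correlated at −0.04, 0.10 and 0.10 over 8498 genes, and not every library correlated best with its own number. With a replicate block all 10 members were called, 6 higher and 4 lower, and 9415 genes in all; the block left the ratio differences at 4.80 and 2.69.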
